A study of Homo sapiens with 5 samples.

Results

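The Toll-like receptors TLR1, TLR2, TLR4, TLR5, TLR6, TLR7 and TLR8, the co-receptors CD14 and LY96 and the adaptor MYD88 were followed in MonoMac6, an established human monocytic cell line that was grown from an acute monocytic leukaemia. The members were fixed by name, and every probe set that carries only the symbol of a member was taken: 16 probe sets for 10 genes, of 41097 probe sets with 1 gene symbol and 54675 in all. TLR4 had 4 probe sets, TLR6, TLR7 and TLR8 had 2 each, and the other 6 genes had 1. Of the 16, 15 lay above the signal floor on at least 1 array, so that all 10 genes were measured, among 15374 measured genes.

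For 12 h the cells were given 100 nM of an eicosanoid dissolved in DMSO, which was leukotriene B4 or C4 or lipoxin A4 or B4, or they were left unstimulated. Each of the 5 conditions was read on 1 array of total RNA. The labels do not say if DMSO was added to the unstimulated cells, and give no culture time for them. All 5 arrays share the cell line, which is a leukaemic model and not a blood monocyte. With 1 array per condition, each value below compares 2 arrays, no error between cultures could be measured, and nothing was tested.

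Toll-like receptors are membrane receptors of innate immunity that recognise conserved molecules of microbes. TLR4, together with LY96 (MD-2) and with CD14, which hands over the ligand, senses lipopolysaccharide. TLR2 pairs with TLR1 or TLR6 to sense bacterial lipopeptides, TLR5 senses flagellin, and TLR7 and TLR8 sense single-stranded RNA in endosomes. All of these signal through MYD88, which recruits IRAK kinases and leads to NF-kappaB activation, and monocytes are among the cells best known for TLR2, TLR4, TLR8 and CD14.

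The promoters of TLR6 and TLR8, the members with the widest ranges over the arrays on their brightest probe sets (not when probe sets are averaged), and of TLR4 and CD14, which act in the same receptor complex, are shown to give the sequence context of the genes the results turn on. The sequences are from RefSeq (GRCh38.p14), run 5′ to 3′ on the strand of the gene, and hold 250 bases before and 50 bases from its start. Capitals mark the motif AGGAAG, the core bound by PU.1 and other ETS factors, on either strand.
TLR4, chr9:117704153-117704452, plus strand: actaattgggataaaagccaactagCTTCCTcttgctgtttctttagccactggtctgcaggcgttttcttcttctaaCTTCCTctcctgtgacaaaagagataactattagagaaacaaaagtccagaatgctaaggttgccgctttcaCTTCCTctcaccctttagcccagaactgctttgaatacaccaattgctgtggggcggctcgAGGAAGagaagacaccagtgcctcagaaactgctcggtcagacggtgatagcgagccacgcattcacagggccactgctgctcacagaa
CD14, chr5:140633126-140633425, minus strand: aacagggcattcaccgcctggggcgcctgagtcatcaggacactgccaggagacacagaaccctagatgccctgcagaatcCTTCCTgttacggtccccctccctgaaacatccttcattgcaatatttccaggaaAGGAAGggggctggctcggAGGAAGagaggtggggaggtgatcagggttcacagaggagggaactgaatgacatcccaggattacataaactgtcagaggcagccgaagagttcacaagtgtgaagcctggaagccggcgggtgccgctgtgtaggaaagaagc
TLR6, chr4:38856768-38857067, minus strand: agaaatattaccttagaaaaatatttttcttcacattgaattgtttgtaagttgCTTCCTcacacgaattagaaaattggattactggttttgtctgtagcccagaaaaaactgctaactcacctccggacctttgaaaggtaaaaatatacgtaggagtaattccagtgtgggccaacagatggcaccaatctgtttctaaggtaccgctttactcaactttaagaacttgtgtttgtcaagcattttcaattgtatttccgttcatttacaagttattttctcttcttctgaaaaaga
TLR8, chrX:12906370-12906669, plus strand: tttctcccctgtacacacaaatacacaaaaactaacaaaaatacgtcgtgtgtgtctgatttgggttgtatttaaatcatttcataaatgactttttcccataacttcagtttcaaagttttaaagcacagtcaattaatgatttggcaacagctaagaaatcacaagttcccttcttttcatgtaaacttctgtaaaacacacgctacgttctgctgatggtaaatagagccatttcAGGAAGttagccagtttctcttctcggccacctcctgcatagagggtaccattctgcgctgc

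The table held a promoter for 7 of the 10 members, and 6 of these 7 had the motif (TLR2, TLR4, TLR6, TLR8, CD14 and MYD88), against 33.6% of all 35116 promoters of the same length. TLR4 had 4 matches and CD14 had 3, while TLR6 and TLR8 had 1 each. Of 4 other motifs searched on both strands, the Sp1 box GGGCGG was in 4 of the 7 (45% of all promoters). The AP-1 motif TGANTCA was in CD14 only (7.71%) and the C/EBP motif TTGCNNAA in TLR8 only (10.5%). A strict form of the NF-kappaB motif (GGG, any 2 bases, then TTTCC) was in 0 (1.91%), and looser forms were not searched. A match is a description of the sequence and not a binding site. TLR10, TLR1 and TLR6 lie in this order on chromosome 4, and TLR7 lies next to TLR8 on the X chromosome, with no other protein-coding gene between them in either cluster.

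Signals are linear intensities, scaled by 1 factor per array, and are compared between arrays for 1 probe set at a time, since probe sets differ in affinity. Signals under the floor of 48.7, the median over probe sets of the mean signal, have no order and were set to the floor for differences. Scaled and floored values were then compared on the log2 scale, where 1 is 2-fold. Of the 10 monocytic markers with a probe set, 9 were above the floor on all 5 arrays, LYZ among them, and FCGR1A was under it on all 5. The summed signal of the 10, of which LYZ gave up to 49095, was 79971 to 105172 on the stimulated arrays and 108093 on the unstimulated array. It was lowest with lipoxin B4. Marker by marker, the median log2 difference of the 9 was -0.28, -0.00, -0.09 and -0.44 with leukotriene B4, leukotriene C4, lipoxin A4 and lipoxin B4. Below 0 were 8, 5, 7 and 7 of the 9. Of the markers of other cells, FCGR3B and CAMP of neutrophils, CLEC4C and LILRA4 of plasmacytoid dendritic cells, CD3G and CD2 of T cells and CDH1 and KRT19 of epithelium were under the floor on all 5 arrays. The brightest of the rest were CSF3R at up to 1039, TCF4 at up to 8977 and KRT18 at up to 843, while T cell and B cell markers reached at most 91.2 (CD5) and 168 (CD79A). In RNA from a whole culture, fewer cells with a transcript and less of it per cell cannot be told apart. The 3′ over 5′ signal ratio of GAPDH was 0.996 to 1.06 on the stimulated arrays and 1.03 on the unstimulated array. The middle control probe set for 18S ribosomal RNA stood further apart, at 913, 3073, 365 and 1056 with leukotriene B4, leukotriene C4, lipoxin A4 and lipoxin B4 and at 186 in unstimulated cells.

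Most members differed little between the arrays. Against unstimulated cells, 2 of 10 member genes were at least 2-fold apart with leukotriene B4 (2.43% of all measured genes were), 0 with leukotriene C4 (2.85% of all), 1 with lipoxin A4 (2.39% of all) and 0 with lipoxin B4 (2.47% of all). All 3 of these differences were lower signals (1.72%, 1.65%, 1.69% and 1.96% of all genes were at least 2-fold lower with leukotriene B4, leukotriene C4, lipoxin A4 and lipoxin B4), of TLR8 and TLR6 with leukotriene B4 and of TLR6 with lipoxin A4, and each rested on 1 of the 2 probe sets of its gene. The median difference of the 10 members was -0.12 with leukotriene B4, where that of all genes was 0.00. With leukotriene C4 it was 0.19, where that of all genes was 0.06. With lipoxin A4 and lipoxin B4 it was -0.00 and -0.01, where that of all genes was 0.00. These 4 comparisons share the unstimulated array.

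**Figure D1:**
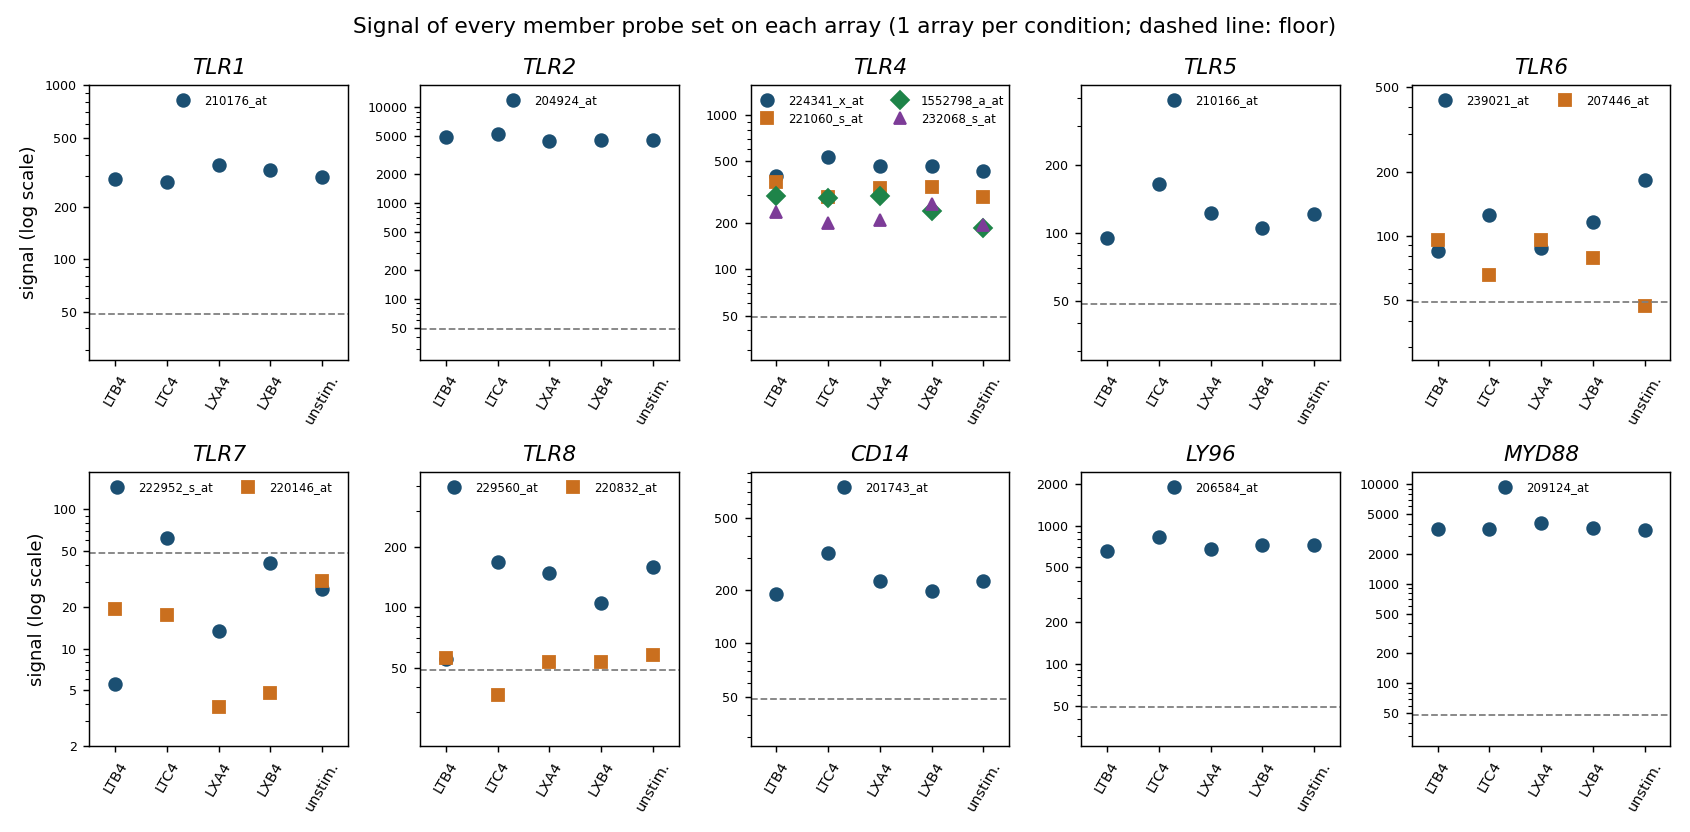
Scaled signal (log axis) of each member probe set on the arrays of leukotriene B4 (LTB4), leukotriene C4 (LTC4), lipoxin A4 (LXA4), lipoxin B4 (LXB4) and unstimulated cells; each point is 1 array and the dashed line is the floor of 48.7. TLR2 and MYD88 lie nearly level at the top, the 2 probe sets of TLR6 run in opposite directions, and TLR7 reaches above the floor on the leukotriene C4 array only.

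Among the receptors at the cell surface, TLR2, the receptor for bacterial lipopeptides, was steady. Its signal was 4961 with leukotriene B4, 5226 with leukotriene C4, 4464 with lipoxin A4 and 4545 with lipoxin B4, against 4601 in unstimulated cells. Both leukotriene arrays lay above the unstimulated array and both lipoxin arrays slightly below it, within a 1.17-fold range. The log2 differences were 0.11, 0.18, -0.04 and -0.02. Among the 500 genes of nearest mean signal, 313 had a range at least as wide.

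TLR1, which pairs with TLR2 for triacylated lipopeptides, was highest with lipoxin A4. Its signals were 289 and 277 with leukotrienes B4 and C4 and 350 and 325 with lipoxins A4 and B4, against 298 in unstimulated cells. The unstimulated array lay between the 2 leukotriene arrays below it and the 2 lipoxin arrays above it. The log2 differences were -0.04, -0.10, 0.24 and 0.13, and the 1.26-fold range was matched or exceeded by 385 of the 500 genes of nearest signal.

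TLR6, the other partner of TLR2, gave opposite results on its probe sets. On the brighter, 239021_at, the signal was 84.4 with leukotriene B4, 125 with leukotriene C4, 87.8 with lipoxin A4 and 116 with lipoxin B4, against 183 in unstimulated cells. The unstimulated array was thus the highest, and the signals with leukotriene B4 and lipoxin A4 were 2.17-fold and 2.08-fold lower (log2 -1.12 and -1.06). With leukotriene C4 and lipoxin B4 the log2 differences were -0.55 and -0.66. On 207446_at the order was turned round: 95.8, 65.7, 95.4 and 78.9 with leukotriene B4, leukotriene C4, lipoxin A4 and lipoxin B4, against 46.8, just under the floor, in unstimulated cells. Measured against the floor, these are at least 1.97-fold, 1.35-fold, 1.96-fold and 1.62-fold higher (log2 0.98, 0.43, 0.97 and 0.70). The compounds keep the same order of distance from unstimulated cells on both probe sets, with opposite sign. Averaged over both probe sets, TLR6 differed by -0.07, -0.06, -0.04 and 0.02, so that no direction for the gene can be given. Of the 500 genes of nearest signal to 239021_at, 28 lay as far from 0 with leukotriene B4 and 31 with lipoxin A4.

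TLR5, the flagellin receptor, differed most between the leukotrienes. It had 94.9 with leukotriene B4, 165 with leukotriene C4, 123 with lipoxin A4 and 106 with lipoxin B4, against 121 in unstimulated cells. Leukotriene C4 gave the highest and leukotriene B4 the lowest signal, with lipoxin A4 and unstimulated cells level between them. The log2 differences from unstimulated cells were -0.35, 0.44, 0.02 and -0.20. At this dim signal 260 of the 500 nearest genes had a range as wide as its 1.73-fold. Without the leukotriene C4 array its range was 0.37 on the log2 scale, in place of 0.79.

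The receptor complex for lipopolysaccharide was represented by TLR4, CD14 and LY96. On the brightest of the 4 TLR4 probe sets, 224341_x_at, signals were 400 with leukotriene B4, 533 with leukotriene C4, 464 with lipoxin A4 and 468 with lipoxin B4, against 432 in unstimulated cells (log2 -0.11, 0.30, 0.10 and 0.12). The ending x_at means that some of its probes also match other sequences. On 221060_s_at they were 367, 294.5, 335 and 339, against 294.6 (0.32, -0.00, 0.19 and 0.20), so leukotrienes B4 and C4 changed places. On 232068_s_at they were 233, 198, 209.5 and 264, against 193 (0.27, 0.04, 0.12 and 0.45).

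The fourth TLR4 probe set, 1552798_a_at, had the widest gap to the unstimulated array. Its signal was 297 with leukotriene B4, 290 with leukotriene C4, 299 with lipoxin A4 and 239 with lipoxin B4, against 186 in unstimulated cells. The unstimulated array was the lowest, and the first 3 compounds stood 1.6-fold, 1.56-fold and 1.61-fold above it, with lipoxin B4 at 1.29-fold. Of the 500 genes of nearest signal 37, 40, 34 and 149 lay as far from 0 in the same comparisons. The mean over the 4 TLR4 probe sets differed by 0.29 with leukotriene B4, 0.25 with leukotriene C4, 0.27 with lipoxin A4 and 0.28 with lipoxin B4. With leukotriene B4 the sign of TLR4 therefore rests on the probe set: its brightest was below 0 and the other 3 above it.

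CD14, the co-receptor that binds lipopolysaccharide, was brightest with leukotriene C4. Its signals were 188 with leukotriene B4, 319 with leukotriene C4, 224.5 with lipoxin A4 and 195 with lipoxin B4, against 224.5 in unstimulated cells. Leukotriene C4 stood 1.42-fold above the unstimulated array (log2 0.51), lipoxin A4 was level with it, and leukotriene B4 (-0.25) and lipoxin B4 (-0.20) lay below. Of the 500 genes of nearest signal, 108 lay as far from 0 with leukotriene C4. Without the leukotriene C4 array the range of CD14 over the arrays was 0.25 on the log2 scale, in place of 0.76. LY96, the lipopolysaccharide-binding partner of TLR4, had 660, 824, 684 and 730 with leukotriene B4, leukotriene C4, lipoxin A4 and lipoxin B4, against 721 (-0.13, 0.19, -0.08 and 0.02). It too was highest with leukotriene C4 and lowest with leukotriene B4, within a 1.25-fold range.

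The highest signals of TLR2, TLR5, CD14, LY96 and, on their brightest probe sets, TLR4, TLR7 and TLR8 fell on the leukotriene C4 array, 7 of 10 members, where 32.4% of all measured genes had their highest signal. The other 3 probe sets of TLR4 were highest on other arrays, and 220832_at of TLR8 was lowest on this array, under the floor. That array also had the brightest 18S ribosomal RNA control, 16.5-fold over the unstimulated array, and a median difference of 0.06 over all genes. The part of these in the members' values was not tested. In the values as deposited the same 7 genes were highest on that array. After quantile normalization TLR2 was instead highest with leukotriene B4, at a log2 difference of 0.07 against 0.05 with leukotriene C4.

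Of the endosomal receptors of single-stranded RNA, TLR7 was at the limit of measurement. Its probe set 222952_s_at was above the floor with leukotriene C4 only, at 62.5, and 220146_at was under the floor on all 5 arrays. The difference with leukotriene C4 is a bound, at least 1.28-fold higher, and no difference can be given for the other compounds.

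TLR8 had the widest range of all members on the brightest probe sets, 1.61 on the log2 scale. With the mean of its probe sets its range was 0.78, below the 0.79 of TLR5, and with the floor at the 30th percentile TLR7 had a wider one, 1.84. On 229560_at the signal was 55.5 with leukotriene B4, 169 with leukotriene C4, 148 with lipoxin A4 and 105 with lipoxin B4, against 159 in unstimulated cells. Leukotriene B4 stood alone near the floor, 2.86-fold lower than unstimulated cells (log2 -1.52), while leukotriene C4 (0.09) and lipoxin A4 (-0.10) were level with them and lipoxin B4 lay between (-0.59). Of the 500 genes of nearest signal, 8 lay as far from 0 with leukotriene B4, and 43 had a range over the 5 arrays as wide as its 3.04-fold. On 220832_at, close to the floor, the signals were 55.6, 36.4, 53.0 and 53.4, against 57.5, and the difference with leukotriene B4 was -0.05. The second probe set thus did not show the low signal with leukotriene B4, and lay too near the floor to show one of that size. The mean of both probe sets differed by -0.78 with leukotriene B4. Of the 5 T cell markers, 2 were above the floor on the leukotriene B4 array and 1 or 2 on each other stimulated array, against 0 in unstimulated cells. With values under the floor set to it, their summed signal was 302 with leukotriene B4 and 250.9 to 280.1 on the other stimulated arrays, against 243 in unstimulated cells. CD3G and CD2 were under the floor on each array. Their part in the TLR8 value was not tested.

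MYD88, the adaptor shared by these receptors, was steady. It had 3588 with leukotriene B4, 3564 with leukotriene C4, 4108 with lipoxin A4 and 3658 with lipoxin B4, against 3487 in unstimulated cells. Only lipoxin A4 stood apart, by 1.18-fold (log2 0.24), and the other compounds differed by at most 0.07. Of the 500 genes of nearest signal, 79 lay as far from 0 with lipoxin A4.

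**Figure D2:**
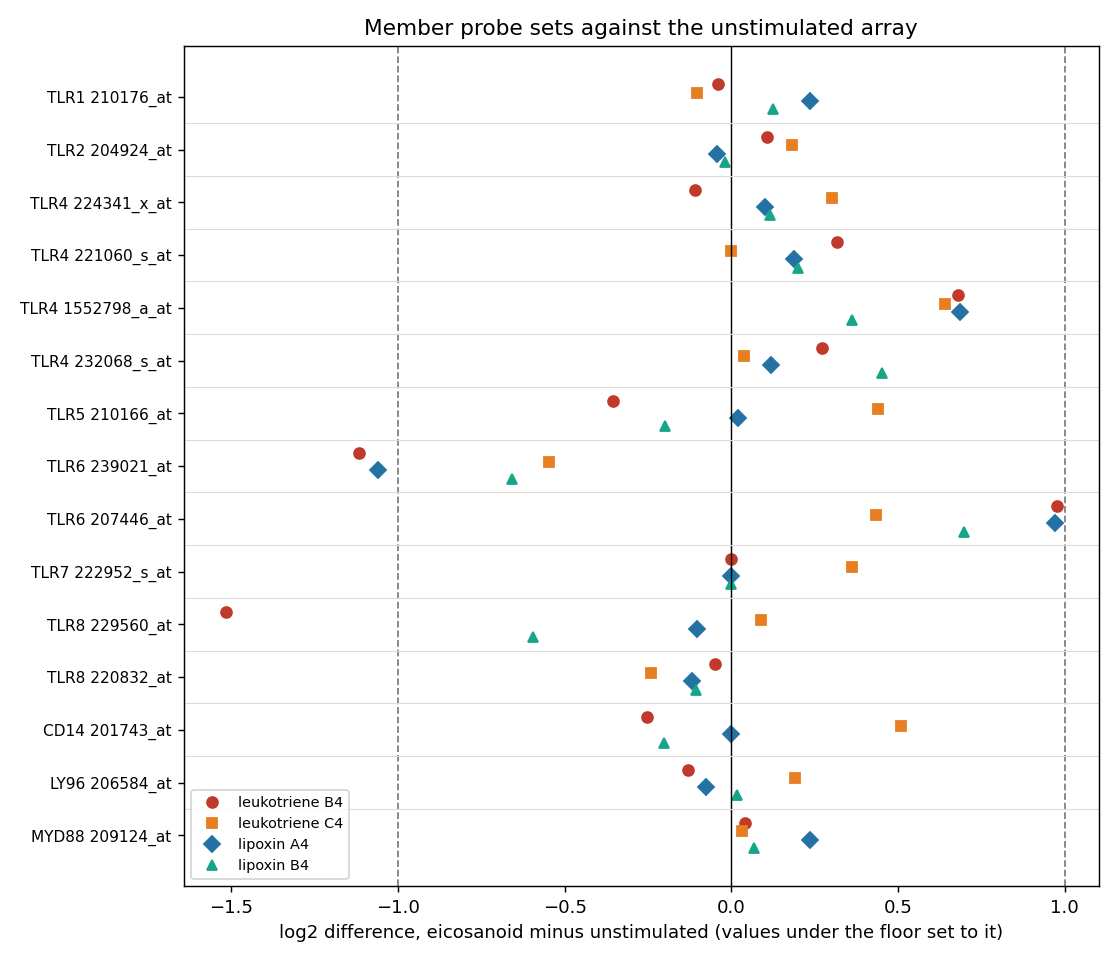
Log2 difference of each measured member probe set from the unstimulated array (horizontal axis), with 1 point per eicosanoid and dashed lines at 2-fold. The points of TLR6 lie left of 0 on 239021_at and right of 0 on 207446_at, and TLR8 reaches -1.52 with leukotriene B4 on 229560_at only.

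Genes of low signal had wider ranges over the arrays than bright ones. On their brightest probe sets, TLR6 and TLR8 were the 2 of 10 genes with a range of at least 2-fold over the 5 arrays, against 8.57% of all measured genes. With the mean of a gene's probe sets 0 of 10 had such a range, and with a floor at the 30th percentile of signal 3 had, TLR7 included. The share of all genes with such a range was not worked out at these settings, so the counts cannot be set against it. Among genes with a mean signal of 100 to 200, where TLR5, TLR6 and TLR8 lie, 23.0% had such a range, and 17.9% of those under 100, against 0.731% between 500 and 2000 and 0.192% above 2000. Between any 2 stimulated arrays, genes under 100 differed with an SD of 0.43 (log2), those of 100 to 200 with 0.51, those of 200 to 500 with 0.31 and those above 2000 with 0.17. TLR2 and MYD88, in the last class, had ranges of 1.17-fold and 1.18-fold, where the median of the 500 nearest genes was 1.19-fold and 1.20-fold.

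**Figure D3:**
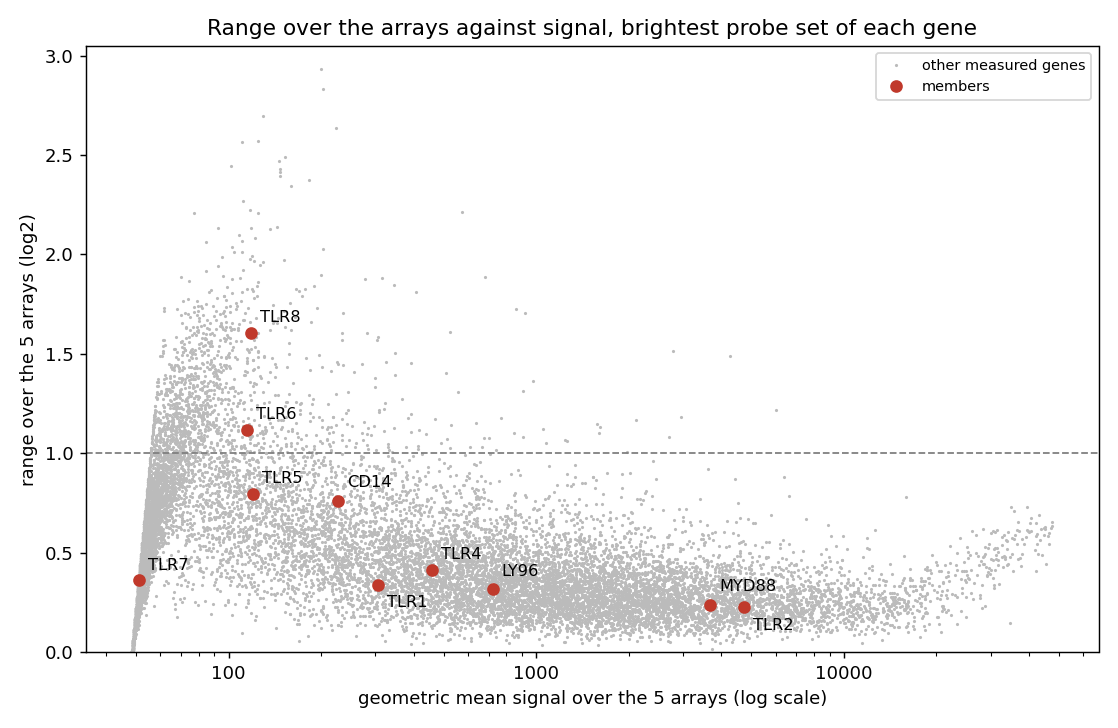
Range over the 5 arrays (log2, vertical axis) against geometric mean signal (log axis) for the brightest probe set of each of 15374 measured genes, with the 10 members in red and a dashed line at 2-fold. TLR8 and TLR6 lie above the line on these probe sets, among genes of low signal, and TLR2 and MYD88 lie within the band of bright genes.

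The 4 compounds were given at the same dose and time, so the 6 pairs of stimulated arrays can be set side by side, with no test. Leukotriene C4 carries glutathione, which the dihydroxy acid leukotriene B4 lacks, while the lipoxins are positional isomers with a further hydroxyl group. Between leukotrienes B4 and C4, 1 of 10 members was at least 2-fold apart (2.43% of all genes were), with TLR8 at 55.5 and 169, a log2 difference of -1.61. CD14 (-0.76) and TLR5 (-0.79) were also lower with leukotriene B4 than with leukotriene C4, and the median of the members was -0.39, where that of all genes was -0.04. Leukotriene B4 and lipoxin A4 also differed by 2-fold or more in TLR8 alone (-1.41, 1.44% of all genes). Between leukotriene B4 and lipoxin B4 no member did (1.28% of all genes), and TLR8 was furthest apart at -0.92.

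Between lipoxins A4 and B4 no member was 2-fold apart (1.31% of all genes). The furthest was TLR8 at 148 and 105 (log2 0.49), and the median was 0.05. Leukotriene C4 also had no member 2-fold apart from lipoxin A4 (2.21% of all genes) or lipoxin B4 (2.15% of all genes), with medians of 0.25 and 0.19. From lipoxin A4 the furthest were TLR6 at 0.51 on 239021_at, which gave -0.54 on 207446_at, and CD14 at 0.51. From lipoxin B4 the furthest was CD14 at 0.71. Without replicates these values do not show that any of the compounds act alike.

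Since the series title divides the eicosanoids into pro- and anti-inflammatory ones, the 2 leukotriene arrays were also set against the 2 lipoxin arrays. They did not overlap for 3 of 10 members, a share near the 28.5% of all measured genes. TLR2 was higher on both leukotriene arrays, by 0.18 on the log2 scale between the means, and TLR1 and MYD88 were lower on them, by -0.25 and -0.12. The other 7 overlapped. TLR8 had the widest gap between the class means at -0.37, but its 2 leukotriene arrays were its lowest and its highest.

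The genes with the profile most like that of TLR8 over the 5 arrays were SLC6A13, a transporter of GABA and taurine, PLCD3, a phospholipase C, and PKD1L2, a polycystin-like protein. Likeness was the root mean square distance between log2 profiles, each centred on its own mean, among 442 genes of like range, and was 0.15, 0.18 and 0.18. SLC6A13 had 58.6, 169, 131 and 117 on the arrays of leukotriene B4, leukotriene C4, lipoxin A4 and lipoxin B4, against 132 in unstimulated cells. PLCD3 had 60.4, 150, 148 and 133, against 147, and PKD1L2 had 49.4, 128, 90.3 and 79.9, against 133. All were dim genes, like TLR8, that came close to the floor with leukotriene B4. Their lower signal with leukotriene B4 follows from the choice by likeness to TLR8 and is not a separate result.

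Other genes of the pathway were measured for 54 of 63 listed. Of these 54, 1 was at least 2-fold higher and 1 lower with leukotriene B4, 1 higher and 0 lower with leukotriene C4, and 0 higher and 1 lower with each lipoxin. Over all measured genes 2.43%, 2.85%, 2.39% and 2.47% were at least 2-fold apart with leukotriene B4, leukotriene C4, lipoxin A4 and lipoxin B4. The 2 genes concerned were the Toll-like receptors TLR9 and TLR10. The medians of the 54 were 0.00, 0.06, -0.01 and -0.06 with leukotriene B4, leukotriene C4, lipoxin A4 and lipoxin B4.

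TLR9, the endosomal receptor of CpG DNA, had 70.9, 98.3, 67.3 and 73.6 with leukotriene B4, leukotriene C4, lipoxin A4 and lipoxin B4, against 190 in unstimulated cells. The unstimulated array was the highest by a wide margin, and the log2 differences were -1.42, -0.95, -1.49 and -1.36 on its only probe set. TLR10, an orphan receptor and neighbour of TLR1, went the other way on 223751_x_at, with 105, 108, 74.7 and 92.5, against 12.1, under the floor, in unstimulated cells. Measured against the floor it was at least 2.16-fold, 2.21-fold, 1.54-fold and 1.90-fold higher. Its other probe set, 223750_s_at, was above the floor in unstimulated cells only, at 52.1. It did not show the higher signals, but lay too near the floor to give a direction. Some probes of 223751_x_at also match other sequences, and TLR10 was not counted with either leukotriene when x_at probe sets were left out. TLR3, the receptor of double-stranded RNA, was under the floor on all of its 3 probe sets.

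Within the lists no other gene reached 2-fold on its brightest probe set. Counts of 0 of 6 receptor chaperones and ligand carriers, 0 of 3 other adaptors, 0 of 14 kinases and ubiquitin ligases of the MyD88 pathway, 0 of 6 genes of the TRIF branch, 0 of 11 negative regulators and 0 of 10 early target genes of lipopolysaccharide held for each compound. Of all measured genes 2.39% to 2.85% were that far apart, a share at which lists this short often hold 0. Other measured probe sets went past 2-fold for the chaperone HSP90B1 (up to 1.19 on log2) and the negative regulators TRAFD1 (down to -1.08) and ATF3 (-1.49 to 0.93). These genes and the next 4 were chosen after their values were seen. TICAM1, the adaptor TRIF used by TLR3 and TLR4, had 183, 189, 206 and 197 with leukotriene B4, leukotriene C4, lipoxin A4 and lipoxin B4, against 318 in unstimulated cells. It lay below the unstimulated array with each compound, by log2 differences of -0.80, -0.75, -0.63 and -0.69. SARM1, an inhibitory adaptor, differed by 0.33, -0.09, -0.94 and -0.63, while its other measured probe set lay between 0.11 and 0.27.

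CYLD, a deubiquitinase that limits NF-kappaB signalling, differed by 0.39, 0.90, 0.69 and 0.64, with its other probe sets between -0.76 and 0.56. SOD2, the mitochondrial superoxide dismutase that lipopolysaccharide induces, had 432, 447, 350 and 539, against 272, log2 differences of 0.67, 0.72, 0.36 and 0.99. Of other early targets, also chosen after their values were seen, TNF differed by 0.19, -0.33, -0.02 and 0.06 and IL1B by 0.17, 0.13, 0.05 and -0.03. CXCL2 lay below unstimulated cells with each compound, by -0.33, -0.52, -0.77 and -0.71 on its only measured probe set, an x_at. Among the 10 measured early targets, 7, 5, 3 and 3 lay above 0 and 2, 5, 7 and 6 below it. The medians of the 10 early target genes were 0.07, 0.01, -0.10 and -0.09.

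**Figure D4:**
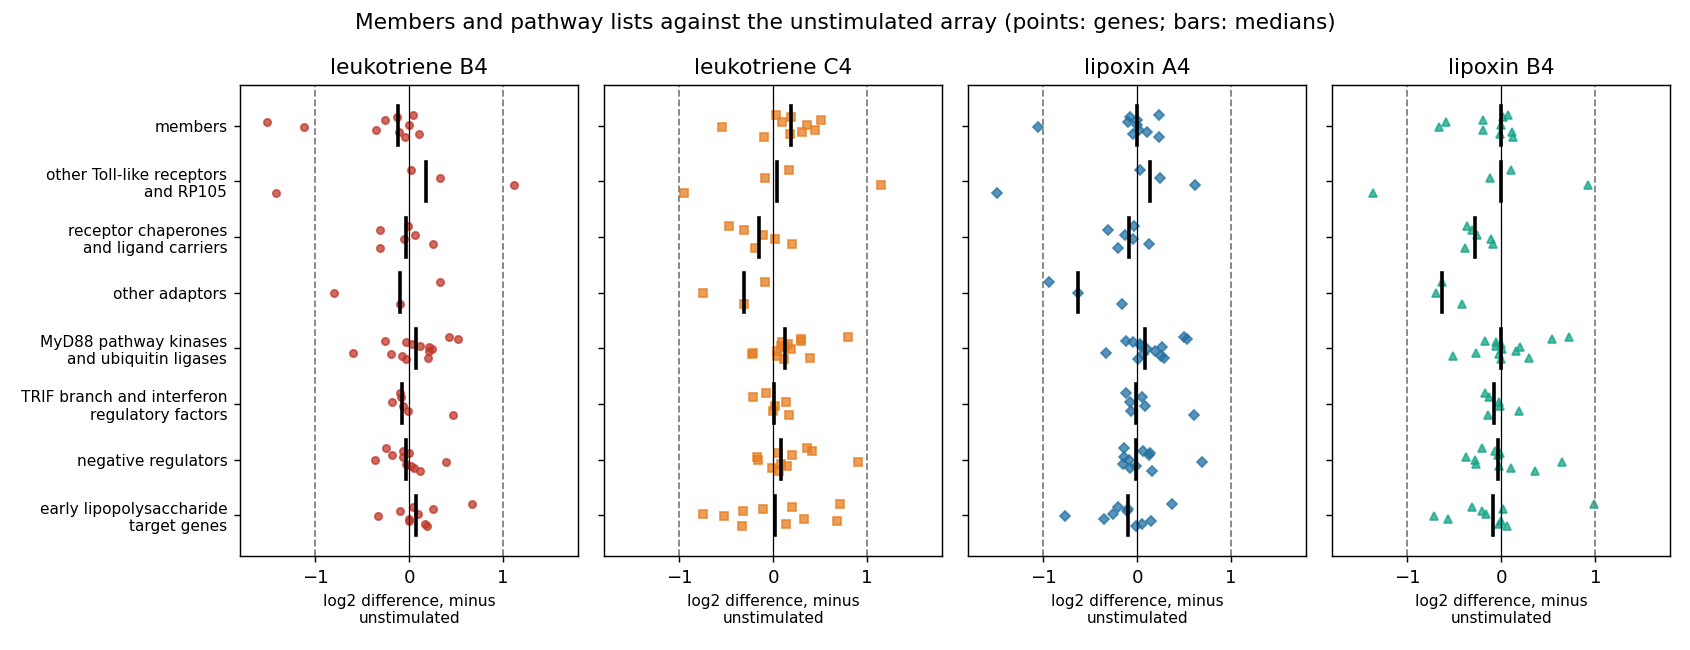
Log2 differences from the unstimulated array (horizontal axis) for the 10 members and the measured genes of 7 pathway lists, in a panel per eicosanoid; points are genes on their brightest probe set, black bars are medians and dashed lines mark 2-fold. Points past 2-fold belong to TLR6 and TLR8 among the members and to TLR9 and TLR10 among the other receptors.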

How the data were processed

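Total RNA of 5 conditions of MonoMac6 cells was hybridised to 1 Affymetrix array each, per the labels. The authors deposited 1 linear intensity per probe set and array, for 54675 probe sets. The software was GCOS 1.4, per the submitters' processing notes. Neither labels nor headers state its signal algorithm. As deposited, the mean trimmed by 2% at each end was 499.9 on all 5 arrays. The 62 control probe sets were left out of all comparisons. Genes were named from 41097 probe sets with 1 symbol in the platform annotation; 1801 had several and 11777 were not listed, and 41043 matched the gene table (GRCh38.p14).

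From these, each array was scaled to 1 common median of the brighter 50% of probe sets, values under the 50th percentile of mean signal (48.7) were set to it as a floor, and log2 was taken. Each gene was represented by its brightest measured probe set. A difference of at least 2-fold was counted. With 1 array per condition there is no test, p-value or standard error, and the number of arrays limits the precision. The counting was tested on simulated data as a check of the code only. Its error at the low signals of TLR6 and TLR8 was not tested. The members, gene lists, naming rule and alternatives were chosen with earlier results of these data known. Named genes were all members, genes of the pathway lists at least 2-fold apart on any stimulated array (up to 4 per list) and the 3 genes nearest in profile to the member of widest range. TICAM1, SARM1, CYLD, SOD2, TNF, IL1B, CXCL2, HSP90B1, TRAFD1 and ATF3 fell outside this rule and were chosen after their values were seen. The alternatives were values as deposited, quantile normalization, floors at the 30th and 70th percentile or none, the mean of probe sets, a 1.5-fold threshold and leaving out the leukotriene C4 array; leaving out x_at probe sets, the comparison of classes and the count of members with a 2-fold range were added after seeing the data. Computations used Python 3.11.15 with numpy 2.4.6 and pandas 2.3.3.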

Additional observations from a re-analysis of the deposited data

How the results depend on the processing

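No paired analysis was possible because each condition has 1 array. The median of the members lay between -0.19 and -0.02 with leukotriene B4 and between 0.12 and 0.19 with leukotriene C4 under the alternatives run. The signal near the floor sets the limits. When probe sets of a gene were averaged, 0 members were 2-fold apart from unstimulated cells with leukotriene B4 (1.74% of all genes) and lipoxin A4 (1.69%). With a floor at the 70th percentile (a signal of 243) there were also 0 with these compounds (0.23% and 0.0984% of all genes). Only 6 of the members are measured at that floor. After quantile normalization lipoxin A4 had 0 (2.24% of all genes), since TLR6 then differed by -0.98. With a floor at the 30th percentile (17.4), TLR7 was counted as higher with leukotriene C4 (1 member), while 13.8% of all genes were counted. From 1.5-fold on, lipoxin B4 had 2 members, TLR6 and TLR8, while 11.1% of all genes were counted. Between compounds, averaging and the 70th percentile floor gave 0 members for leukotriene B4 against leukotriene C4 and against lipoxin A4; the 30th percentile floor gave 2 for the leukotrienes and 1 each for leukotriene B4 against lipoxin B4, leukotriene C4 against lipoxin A4 and lipoxin A4 against lipoxin B4; quantile normalization gave 1 for leukotriene B4 against lipoxin B4. Members with a range of at least 2-fold over the arrays were 0 on averaging and at the 70th percentile floor, and 2 or 3 under the other alternatives run. Members separating the leukotriene arrays from the lipoxin arrays were 3 or 4 under all alternatives run. The share of all genes was not worked out for pairs, ranges or this split under the alternatives. Pathway genes counted were 2 with leukotriene C4 as deposited (3.02% of all genes) and 3 with lipoxin B4 after quantile normalization (2.16%). At the 30th percentile floor they were 2, 3 and 3 for leukotriene C4, lipoxin A4 and lipoxin B4 (13.8%, 12.7% and 12.3% of all genes). At the 70th percentile floor they were 0 with each compound (at most 0.23% of all genes). With leukotrienes B4 and C4 they were 1 and 0 both on averaging (1.74% and 2.07% of all genes) and without x_at probe sets (2.36% and 2.84%). The causes were not tested beyond the construction of each alternative.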
